A study of Mus musculus with 2 samples.

Results

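Endothelium is the cell layer that lines blood and lymph vessels. The 47 genes described here were listed as its markers, together with ligands that make vessels grow. They were chosen by name, and every array probe was taken whose RefSeq accession or described symbol leads to a listed gene. All 47 had a probe, 65 probes in total, and 46 were measured on both arrays, out of 16549 genes detected in the series. Of these 46, 37 are endothelial markers and 9 are secreted ligands. A subset of 22 markers known mainly from endothelium is called endothelium-restricted below. The genes and this subset were chosen with earlier results of these data known, so their values are a description only.

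The RNA came from whole pancreas of mouse pups at postnatal day 3 (P3). One pool came from pups with the Glis3zf/zf genotype, which the labels also call Glis3KO, and it is called the mutant below. The other came from wild-type pups, and each pool combined RNA of 2 pups. The protein made from Glis3 is a zinc finger transcription factor, and the series asked about its role in pancreatic beta cell development. The same 2 pools were hybridised to 2 Agilent two-colour arrays, with the mutant in Cy5 on one array and in Cy3 on the other. This dye swap repeats the measurement of 1 sample per genotype, so no value has a check across animals and no test was made.

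Vascular endothelial growth factors are secreted ligands that bind receptor kinases on endothelial cells. Kdr carries the main growth signal of Vegfa, and Flt1 binds Vegfa tightly and limits its supply. Angiopoietins act on a second receptor system, Tek and its partner Tie1. In the pancreas, islets hold a dense capillary bed, and endocrine cells are a known source of Vegfa.

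Each ratio is the log2 of the mutant signal over the wild-type signal on an array, and a mean is that of both arrays. Signals are normalised fluorescence, comparable between genotypes for one probe but not between probes. A summed signal over a list is weighted towards its brightest probes, so it does not measure a shift shared by the list. Among genes not past the 2-fold rule below, the technical SD of a mean ratio was 0.079, and it ran from 0.066 to 0.104 over 10 classes of brightness. It covers the dye swap alone.

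Several vessel markers were moderately lower in the mutant pool, and no marker or ligand differed by 2-fold. Lyve1, Mmrn2, Flt1, Egfl7, Robo4, Kdr and Cdh5 were lower by at least 1.2-fold (16.7%) on each array, and no listed gene was higher by that much on both. These 7 are 15.2% of the 46 measured genes and 18.9% of the 37 markers. Among all detected genes, 2.57% were lower and 1.7% were higher by the same rule. Under the 2-fold rule (a mean change of 2-fold or more that reaches 1.5-fold on each array) 0 listed genes were called, where 0.151% of all genes were lower and 0.23% were higher. Whole pancreas was measured in 1 pool per genotype. Fewer endothelial cells, less RNA per endothelial cell, more RNA of other tissue and differences between pups therefore cannot be told apart.

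The median mean ratio was -0.19 over the 22 endothelium-restricted markers, -0.06 over all 37 markers and -0.11 over the 9 ligands, beside 0.004 over all detected genes. The median of all 37 markers moved to -0.12 with the scanner software's own ratio and to -0.16 with the mutant in Cy3 alone, and that of the ligands to -0.05 with the median over all detected probes of a gene. Of the restricted markers, 15 were below 0 on both arrays, 1 was above 0 on both and 6 changed sign with the dye. Over all 37 markers these counts were 19, 5 and 13. Among all genes, 30.5% were below 0 and 32.5% above 0 on both arrays. The summed signal of the restricted markers was 18309 and 17777 in the mutant pool, against 21989 and 21327 in the wild-type pool. Both mutant sums lay below both wild-type sums.

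**Figure D1:**
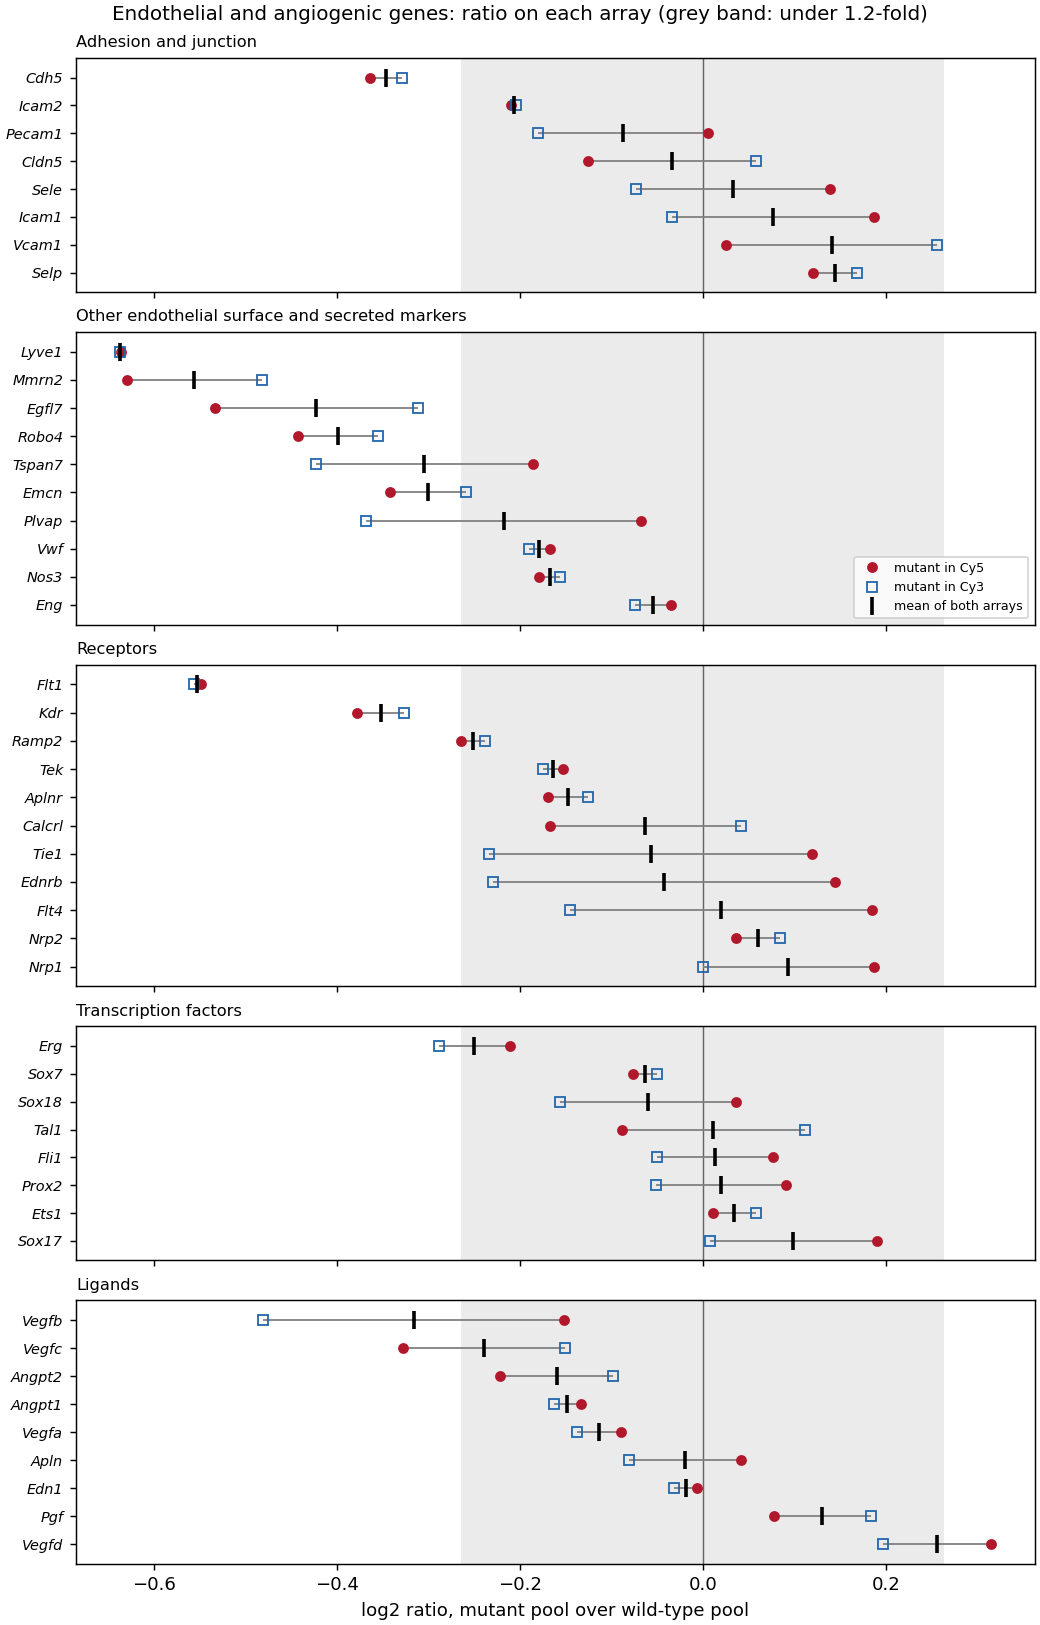
Each row is a gene. The horizontal axis is the log2 ratio of mutant over wild type, with a filled circle for mutant Cy5, an open square for mutant Cy3 and a bar for their mean. Outside the grey band a ratio is past 1.2-fold. The 7 genes left of the band on both arrays are Cdh5, Lyve1, Mmrn2, Egfl7, Robo4, Flt1 and Kdr.

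The promoters of Flt1, Egfl7, Robo4 and Kdr are shown because these genes were lower together, with Vegfa beside them as the ligand of Flt1 and Kdr. No entry was held for Lyve1, Mmrn2 and Cdh5. Sequences are the 250 bases before the start in RefSeq's annotation of GRCm38.p6, read 5′ to 3′ on the gene's strand. The table held the promoters of 28 of the 46 measured genes. Both strands were searched for motifs of factors known from endothelium. The repeat of the ETS binding core was spelled GGAAGGAA and is called the GGAA repeat below. The ETS core with its flanks was spelled CCGGAAG. The SOX core was spelled ACAAT. The GATA core was spelled AGATAA. The GGAA repeat and the ETS core share letters and can overlap. Capitals mark a match on either strand.
Flt1: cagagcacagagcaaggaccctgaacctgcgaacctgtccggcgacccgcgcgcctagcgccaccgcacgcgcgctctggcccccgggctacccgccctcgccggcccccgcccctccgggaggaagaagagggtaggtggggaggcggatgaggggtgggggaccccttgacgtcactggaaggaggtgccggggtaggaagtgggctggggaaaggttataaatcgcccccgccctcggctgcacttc
Egfl7: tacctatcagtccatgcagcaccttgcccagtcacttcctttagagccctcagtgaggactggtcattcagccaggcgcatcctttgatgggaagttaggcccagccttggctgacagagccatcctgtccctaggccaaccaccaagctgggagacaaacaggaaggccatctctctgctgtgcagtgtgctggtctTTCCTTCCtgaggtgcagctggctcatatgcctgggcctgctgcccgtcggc
Robo4: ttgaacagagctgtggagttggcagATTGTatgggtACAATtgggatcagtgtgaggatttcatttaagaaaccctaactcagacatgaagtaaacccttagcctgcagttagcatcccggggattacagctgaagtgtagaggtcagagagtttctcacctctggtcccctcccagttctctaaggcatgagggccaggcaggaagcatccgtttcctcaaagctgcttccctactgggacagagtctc
Kdr: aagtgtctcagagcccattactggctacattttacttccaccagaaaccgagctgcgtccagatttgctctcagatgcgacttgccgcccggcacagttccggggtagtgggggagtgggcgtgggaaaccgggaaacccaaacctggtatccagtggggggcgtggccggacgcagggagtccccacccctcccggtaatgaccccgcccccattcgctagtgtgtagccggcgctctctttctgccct
Vegfa: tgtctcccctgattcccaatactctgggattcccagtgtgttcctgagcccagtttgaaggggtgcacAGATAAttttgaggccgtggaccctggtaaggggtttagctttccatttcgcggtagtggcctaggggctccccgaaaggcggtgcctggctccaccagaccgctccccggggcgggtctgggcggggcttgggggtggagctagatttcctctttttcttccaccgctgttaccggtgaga
They lie at chr5:147726012-147726261 (minus strand, Flt1), chr2:26580833-26581082 (plus, Egfl7), chr9:37401722-37401971 (plus, Robo4), chr5:75978456-75978705 (minus, Kdr) and chr17:46032378-46032627 (minus, Vegfa). For Egfl7 and Vegfa, which have 3 and 2 starts in the table, the outermost start was used. Flt1 and Kdr held none of these letters, Egfl7 held the GGAA repeat on the minus strand, Robo4 held the SOX core once on each strand and Vegfa held the GATA core. Of 32851 promoters in the table, 3.12% held the GGAA repeat, 6.91% the ETS core, 27.7% the SOX core and 9.99% the GATA core. Over 21 marker promoters, taken at the outermost start, the counts were 1, 0, 4 and 1. A match is a string of letters and not a binding site, and its absence says only that the letters are not in this window.

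The other surface and secreted markers held most of the lower genes. All 10 were below 0 on both arrays, 4 passed the 1.2-fold rule and the median was -0.30. Lyve1, a hyaluronan receptor of lymphatic endothelium and some tissue macrophages, had signals of 917.6 and 902 in the mutant pool, against 1426 and 1403 in the wild-type pool. Its ratio was -0.64 on each array, 1.55-fold lower in the mutant. It had the lowest ratio of the listed genes and ranked 72 of 16549 from the lowest. A second, dimmer Lyve1 probe was flagged as non-uniform with the mutant in Cy3, and on the other array its ratio was -0.06, with 114.6 in the mutant pool against 119.9 in the wild-type pool. The Lyve1 call therefore rests on 1 probe, as do those of Mmrn2, Egfl7, Robo4 and Kdr, which were each read by 1 probe. Lyve1 was the only lower gene outside the endothelium-restricted subset.

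Mmrn2, an extracellular matrix glycoprotein deposited by endothelium, had 1114 and 1229 in the mutant pool, against 1723 and 1716 in the wild-type pool. The ratios were -0.63 and -0.48, a mean of -0.56, 1.47-fold lower. Egfl7, a secreted endothelial factor that guides vessel tube formation, had 1489 and 1625 in the mutant pool, against 2154 and 2017 in the wild-type pool. Its ratios of -0.53 and -0.31 differed more between the dyes than those of Mmrn2, and their mean was -0.42. Robo4, a guidance receptor of endothelium that stabilises vessels, had 1540 and 1500 in the mutant pool, against 2093 and 1918 in the wild-type pool. The ratios were -0.44 and -0.35, a mean of -0.40. For each of these genes both mutant signals lay below both wild-type signals.

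Emcn, Tspan7, Plvap, Vwf, Nos3 and Eng were lower on both arrays without passing the rule. Emcn, a sialoglycoprotein of capillaries and veins, came nearest. It had signals of 1112 and 1224 in the mutant pool, against 1409 and 1464 in the wild-type pool, and ratios of -0.34 and -0.26 on either side of the 1.2-fold limit of 0.263 on the log2 scale. The tetraspanin Tspan7, also found in islet and nerve cells, had -0.19 and -0.42, and Plvap, which forms the diaphragms of fenestrated capillaries, had -0.07 and -0.37. Both were past the limit on the array with the mutant in Cy3 alone. Vwf, the clotting factor carrier stored in endothelium, averaged -0.18, the nitric oxide synthase Nos3 -0.17 and the TGF-beta coreceptor Eng -0.05.

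Among the 11 receptors the growth factor receptors Flt1 and Kdr were lower past the rule, and the median was -0.06. Flt1 had signals of 788.6 and 738.4 in the mutant pool, against 1153 and 1086 in the wild-type pool. Its ratios were -0.55 and -0.56, 1.47-fold lower, and a second probe also averaged -0.55. Kdr had 770.1 and 730.3 in the mutant pool, against 1000.3 and 915.5 in the wild-type pool. Its ratios were -0.38 and -0.33, 1.28-fold lower. These receptors of Vegfa were lower with either dye.

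The lymphatic receptor Flt4, which binds Vegfc and Vegfd, did not follow them. It had signals of 617.4 and 323.9 in the mutant pool, against 543.2 and 358.1 in the wild-type pool, so its ratio changed sign with the dye, 0.18 for mutant Cy5 and -0.14 for mutant Cy3. Ramp2, a partner that turns Calcrl into the adrenomedullin receptor, had -0.26 and -0.24, which lie just past the limit with the mutant in Cy5 and inside it with the mutant in Cy3. Calcrl itself averaged -0.06 and changed sign with the dye. The angiopoietin receptor Tek had -0.15 and -0.17, and its partner Tie1 averaged -0.06 with ratios of 0.12 and -0.23. The apelin receptor Aplnr averaged -0.15, but its other probe, about as bright, averaged 0.11, so it has no settled direction. The coreceptors Nrp1 and Nrp2 averaged 0.09 and 0.06, and the endothelin receptor Ednrb -0.04. Probes described as neuropilins but with no accession that leads to a gene were below 0 on both arrays. The one described as neuropilin 2 had -0.43 and -0.31, and the one described as neuropilin, on the chromosome of Nrp1, had -0.24 and -0.16. The direction of both coreceptors is therefore not settled by these probes.

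**Figure D2:**
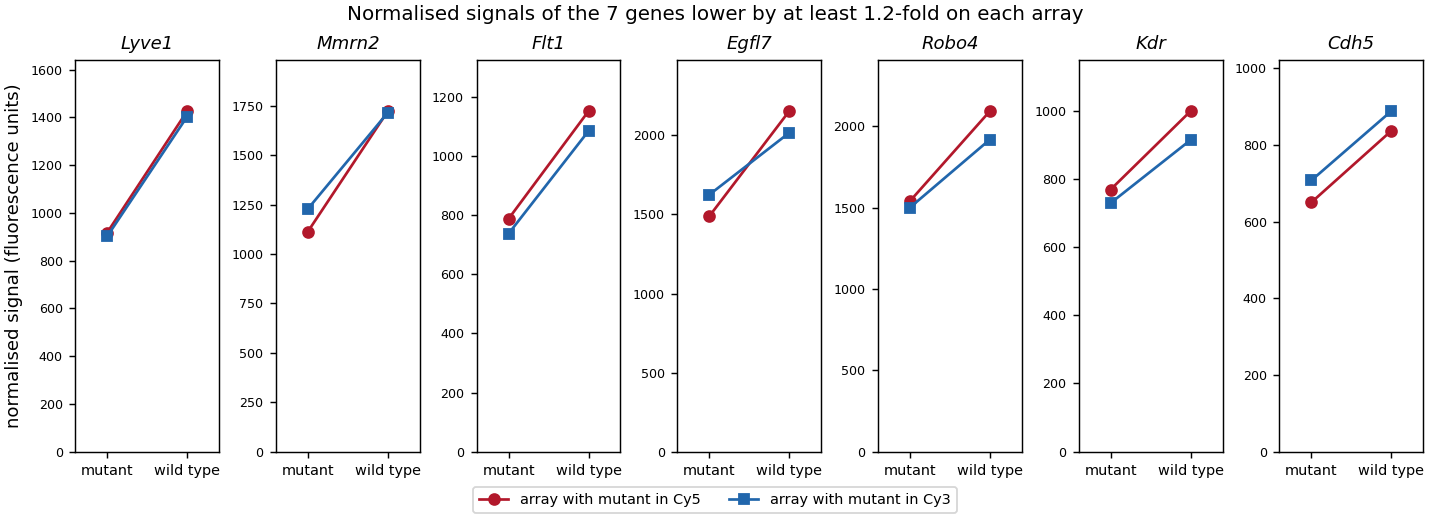
Each panel is a gene past the 1.2-fold rule, from the lowest mean ratio at the left. The vertical axis is normalised signal in fluorescence units from 0, with the mutant pool left of the wild-type pool, and a line joins the 2 signals of one array. In each panel both lines run upward to the wild type, as for Lyve1 with 917.6 and 902 in the mutant pool against 1426 and 1403 in the wild-type pool.

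The adhesion and junction genes were mixed. Their median was -0.00032 over 8 measured genes, of which 1 was lower past the rule, 2 were below 0 and 2 above 0 on both arrays and 4 changed sign. Cdh5, the cadherin of endothelial junctions, had signals of 649.9 and 707.2 in the mutant pool, against 836.4 and 887.9 in the wild-type pool. Its ratios were -0.36 and -0.33, 1.27-fold lower. The call rests on the brighter probe, since the other Cdh5 probe had 0.20 and -0.05.

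Icam2, an adhesion molecule of resting endothelium, had -0.21 and -0.20. Pecam1, a junction protein also found on platelets and leukocytes, had 0.01 and -0.18, and the tight junction claudin Cldn5 had -0.13 and 0.06. Neither had a direction shared by both dyes. The adhesion molecules that activated endothelium puts out had mean ratios above 0. Selp averaged 0.14 and Vcam1 0.14, each above 0 on both arrays, while Icam1 averaged 0.08 and Sele 0.03 and both changed sign. Sele was near background, with raw signals of 69.4 to 81.3 against 60.8 to 76.2 at the 95th percentile of negative controls. Its mean moved to 0.275 with the scanner software's own ratio. Esam, a junction adhesion molecule, was usable on the array with the mutant in Cy3 alone, because its spot was flagged as non-uniform on the other. There it had 479.6 in the mutant pool, against 491.9 in the wild-type pool, a ratio of -0.04.

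None of the 8 transcription factors passed the 1.2-fold rule, and their median was 0.01. Erg, an ETS factor that maintains endothelial identity, stood lowest at -0.21 and -0.29. It had signals of 372.2 and 368.2 in the mutant pool, against 430.6 and 449.8 in the wild-type pool, and its other probe averaged -0.07. The other ETS factors Fli1 and Ets1 averaged 0.01 and 0.03. Of the SOX factors of vessel development, Sox7 averaged -0.06, Sox18 -0.06 and Sox17 0.10, with -0.26 and 0.04 by the other probes of Sox17. Tal1, a factor of blood and vessel precursors, averaged 0.01. Prox2, outside the endothelium-restricted subset and dim with raw signals of 81.1 to 105.8, averaged 0.02. All of these were within 0.10 of 0 except Erg, by the probe used here.

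The ligands held 0 genes past the rule in either direction, beside 2.57% of all detected genes lower and 1.7% higher. On both arrays 6 ligands were below 0 and 2 above 0, beside 30.5% and 32.5% of all detected genes, and 1 changed sign. The 6 include Edn1, at -0.006 and -0.03. Vegfa had signals of 608.0 and 606.9 in the mutant pool, against 646.7 and 667.7 in the wild-type pool. Its ratios were -0.09 and -0.14. The 3 Vegfa probes differed: the others had mean ratios of -0.05 and -0.45, the last with -0.35 and -0.56. A size of change for Vegfa therefore depends on the probe, and all 3 were below 0 on both arrays.

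Vegfb, a ligand of Flt1, had signals of 10725 and 10830 in the mutant pool, against 11912 and 15108 in the wild-type pool. Its ratios of -0.15 and -0.48 differed widely between the dyes, and the other probe averaged -0.03. The lymphatic growth factors went opposite ways. Vegfc had -0.33 and -0.15, with signals of 440.1 and 462.3 in the mutant pool, against 552.3 and 513.1 in the wild-type pool. Vegfd, listed under its older symbol Figf, had 0.32 and 0.20, with signals of 500.04 and 517.6 in the mutant pool, against 401.9 and 451.5 in the wild-type pool. Vegfd had the highest mean ratio of all 46 genes, 0.26.

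The angiopoietins Angpt1, which steadies vessels, and Angpt2, which loosens them, averaged -0.15 and -0.16, with 0.06 by the other Angpt1 probe. Pgf, another ligand of Flt1, averaged 0.13. The vessel constrictor Edn1 and the peptide Apln, the ligand of Aplnr, both averaged -0.02.

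**Figure D3:**
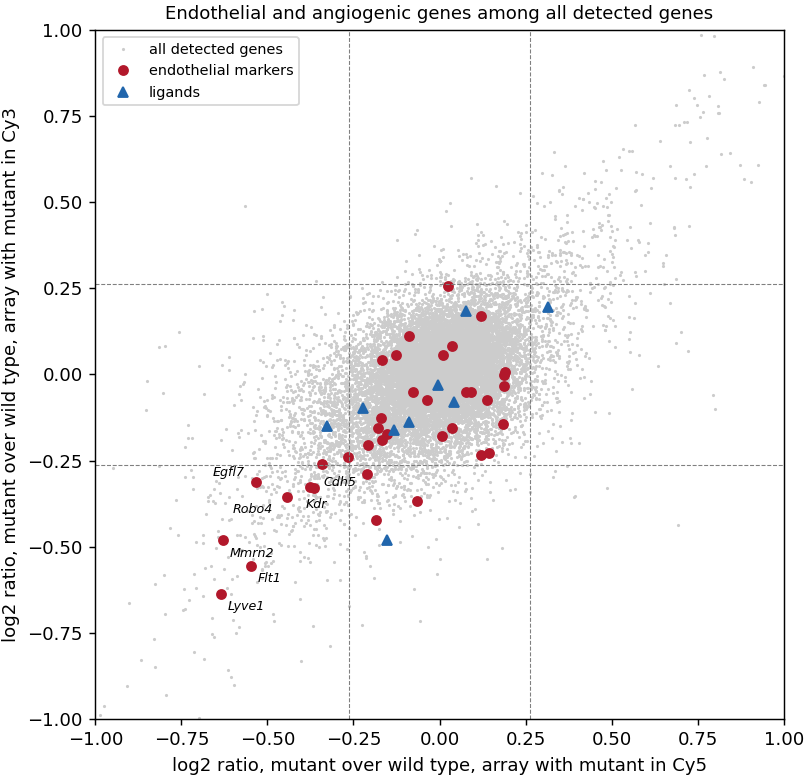
The horizontal axis is the log2 ratio of mutant over wild type when the mutant was labelled with Cy5, and the vertical axis is the same ratio when it was labelled with Cy3. Grey points are all detected genes (89 lie outside the axes), circles are endothelial markers, triangles are ligands and dashed lines mark 1.2-fold. The 7 named genes lie in the lower left corner, with Lyve1 at -0.64 on both axes.

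The ratios of the 46 genes on the 2 arrays had a Pearson correlation of 0.72 and a Spearman correlation of 0.67, beside 0.72 and 0.43 over all 16549 detected genes. These are correlations across genes of the same 2 pools and describe technical repeatability. The mean ratios of the 37 markers had an SD of 0.203 among themselves, against 0.193 over all genes and a technical SD of 0.084 over the same markers. The middle of the restricted markers, from the lower to the upper quartile, ran from -0.33 to -0.06, against -0.07 to 0.07 over all genes.

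The lower markers were among the brighter spots. The 19 markers at or above the median brightness of the markers had a median ratio of -0.25, and 7 of them (36.8%) passed the 1.2-fold rule, while the 18 dimmer markers had a median of 0.01 with 0 calls. Over all detected genes at least as bright as the dimmest of the 19 brighter markers, with no upper limit, 3.97% of 5971 were lower past the rule. Of the 10578 dimmer genes, 1.79% were. The split was made after the values were seen. Across the 37 markers, ratio and brightness had a Pearson correlation of -0.58 and a Spearman correlation of -0.59, as a description of spots that share 2 arrays. With the offset that damps dim spots set to 0, the medians were -0.25 and 0.02. Some dimmer markers lay near background. Raw Sele was 69.4 in mutant Cy5, against 60.8 at the 95th percentile of negative controls. A ratio near 0 in such spots does not show that a gene was unchanged.

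**Figure D4:**
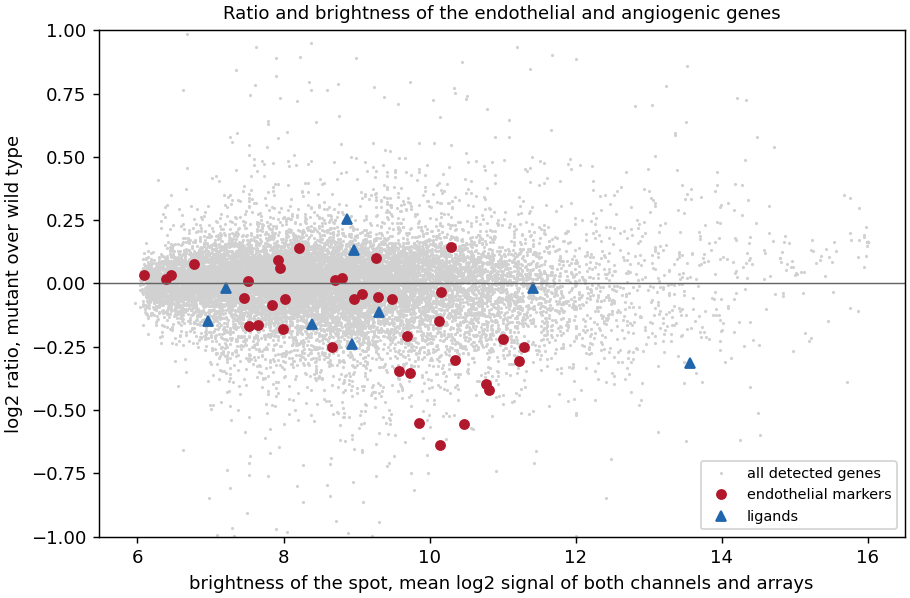
The horizontal axis is brightness, the mean log2 signal of both channels and arrays, and the vertical axis is the mean log2 ratio of mutant over wild type. Grey points are all detected genes (64 lie outside the axes), circles are endothelial markers and triangles are ligands. The markers lowest on the plot, down to -0.64 for Lyve1, sit right of the middle, and the dimmer markers gather near 0.

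A second list of 38 endothelial and vascular genes that are not among the 47 was read the same way. Of 36 detected, 19 were below 0 and 5 above 0 on both arrays, beside 30.5% and 32.5% of all detected genes. Past the 1.2-fold rule 4 (11.1%) were lower and 2 higher, beside 2.57% and 1.7% of all detected genes. The median of the list was -0.07. Ecscr, a surface protein of endothelium, had -0.62 and -0.57, and Esm1, a proteoglycan of sprouting tip cells, had -0.64 and -0.47. The other lower genes, named after their values were seen, were Efnb2, an ephrin of arteries, with a mean of -0.48 and Ptprb, a phosphatase that acts on Tek, with -0.35. The higher genes were Procr, the protein C receptor, with 0.76 and 0.99, and Klf2, a factor that responds to blood flow, with 0.65 and 0.32. Endothelial genes thus stood on both sides of the rule in this list.

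Of 16 detected genes of the hypoxia response and the control of Vegfa, 1 was higher and 1 lower past the rule, and the median was 0.04. Angptl4, a lipase inhibitor that also responds to fasting, had 0.91 and 0.89. Ndrg1, a gene that hypoxia raises, had -0.37 and -0.33. The glucose transporter Slc2a1 had -0.41 and -0.17, which missed the rule, and Pfkfb3 averaged 0.11.

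The lists for cells next to vessels and in blood were short. Lower past the rule were 22.2% of the platelet genes and 20% of the erythroid genes. These shares stand beside 18.9% of the 37 markers and 2.57% of all detected genes. Of 9 pericyte and mural genes and 7 smooth muscle genes, 0 passed the rule, with medians of -0.13 and -0.01. Of 9 platelet genes 2 were lower, Pf4 with a mean of -0.41 and Itgb3 with -0.37, the median was -0.02, and their summed signal was 5015 and 5833 in the mutant pool against 6176 and 7008 in the wild-type pool. Of 5 erythroid genes 1 was lower, Hba-a1 with -0.46. Their summed signal was 7284 and 7489 in the mutant pool, against 9366 and 10472 in the wild-type pool. All 9 platelet genes and 5 of 7 erythroid genes were above background. Pecam1, Vwf, Selp, Tal1 and Tspan7 are also known from blood cells or other tissue, and the part of such cells in the result was not tested.

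Since some tissue macrophages also carry Lyve1, a macrophage list was read too. Its 9 genes had a median of 0.30, with 2 higher and 1 lower past the rule, and a summed signal of 24304 and 22242 in the mutant pool, against 15577 and 15317 in the wild-type pool. On both arrays 6 of the 9 were above 0 and 3 below 0. Lyz2 averaged 0.86 and Adgre1 0.33, while Cd163, a scavenger receptor of macrophages, averaged -0.42 with -0.50 and -0.34. Mesenchyme genes had a median of 0.19, with 2 of 7 higher and 0 lower, among them Pdgfra at 0.45. The part of macrophages or mesenchyme in the marker ratios was not tested.

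**Figure D5:**
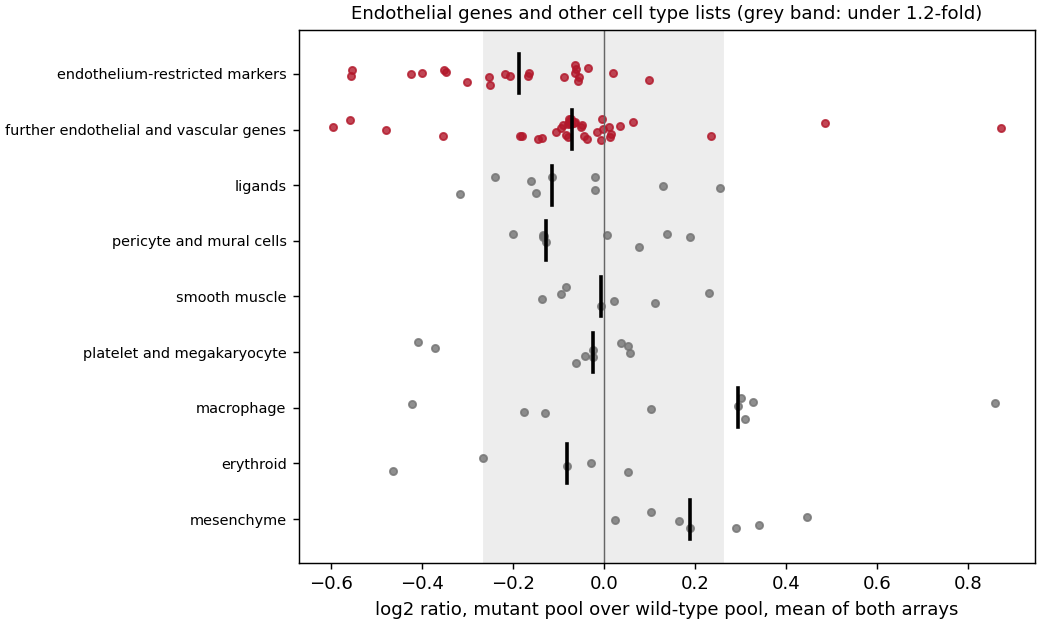
Each row is a gene list and each point a detected gene, placed by its mean log2 ratio of mutant over wild type. Black bars are medians and the grey band is under 1.2-fold. The endothelium-restricted markers have their median at -0.19 and the macrophage genes theirs at 0.30.

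Islet and muscle genes differed more between the pools. Of 11 islet endocrine genes read from unsaturated probes, 10 were lower past the 1.2-fold rule, with a median of -1.73, and their summed signal was 49978 and 47223 in the mutant pool against 109931 and 102228 in the wild-type pool. Ins1 and Ins2, also lower, were read from saturated probes and are left out of these values. All 9 detected skeletal muscle genes were higher, with a median of 3.22 and sums of 22893 and 23142 in the mutant pool against 2197 and 2537 in the wild-type pool. The acinar genes, which mark the pancreas, included 5 of 11 read from saturated probes, which give no usable ratio. The other 6 had a median of -0.01, with Gp2 at 1.93 and Ptf1a at 0.52 higher and Ctrl at -1.11 and Rbpjl at -0.85 lower, and a summed signal of 65626 and 65649 in the mutant pool against 66981 and 65147 in the wild-type pool. Islet vessels and the vessels of other tissue were not separated in the RNA, and the part of endocrine and muscle tissue in the marker ratios was not tested. The Glis3 probe gave 119.5 and 121.3 in the mutant pool, against 121 and 120.3 in the wild-type pool, so it does not check the labels.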

How the data were processed

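Two-colour Agilent whole mouse genome arrays were read for 1 pool per genotype, with 500 ng of total RNA labelled per reaction and hybridised for 17 hours, per the labels. The deposited scanner files hold mean and background intensity per spot on a linear scale, not normalised, and a log10 ratio and its p-value made by the software, per the file headers. The deposited series table holds log2 ratios, which equal the software's ratio within 0.002 for over 99.98% of probes. Per the submitters' processing notes the software was Agilent Feature Extraction 7.5, while the file headers give module 8.5.1.1; which made the values is not settled.

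Intensities were background-corrected in limma 3.58.1 (R 4.3.3; normexp, offset 50) and normalised by loess within arrays, which assumes that most genes do not change. Control spots had weight 0. Non-uniform spots (15 and 53) were dropped. Channel signals were scaled between arrays by Aquantile. Of 41534 gene spots per array, 94.0% to 96.8% were well above background and 26 to 48 per channel were saturated. Recovery of known ratios was tested on simulated data.

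Of 41174 probes, all but 17749 were named through RefSeq's gene table (GRCm38.p6). Each gene took its brightest unsaturated probe, or its brightest where all were saturated, and was kept if well above background in at least 1 genotype on both arrays. The members and lists were chosen with earlier results of these data known. Of other lists, at most the 4 genes of largest absolute ratio were named, with stated exceptions. Later steps used Python 3.11.15, pandas 2.3.3, numpy 2.4.6 and matplotlib 3.10.9.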

Additional observations from a re-analysis of the deposited data

How the results depend on the processing

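Each value rests on 1 pool per genotype and 2 arrays, so the spread between animals is unknown, and the number of arrays limits the precision. The 2-fold and 1.2-fold rules need both arrays, so they were not run on an array alone. The call of 0 genes past the 2-fold rule held under the other 7 alternatives. The 7 genes lower by 1.2-fold were shared by these alternatives except the median over all detected probes of a gene, which left 6, without Cdh5. Emcn joined them, giving 8, with a normexp offset of 0, median centring, the software's own ratio and the deposited series table. Over all genes, 426 were lower and 282 higher by that rule, against 644 and 210 with median centring and 642 and 448 with the software's ratio. The median of all 37 markers moved to -0.12 (-0.1153 by the software's ratio, -0.1152 by the series table) and to -0.16 with the mutant in Cy3 alone. That of the restricted markers moved to -0.23 (-0.2251 and -0.2250). That of the ligands moved to -0.0454 with the median over probes. The cause of these shifts was not tested. Of 414 values of single genes under the alternatives, 403 were counted as unchanged, 11 as moved and 0 of the called genes reversed. All single-array values counted as unchanged, even Flt4 at 0.18 and -0.14 against a mean of 0.02 and a technical SD of 0.078. Genes called on both arrays could not reverse on an array alone, and both changes of the dim-probe filter left every listed gene's value as it was. The count therefore overstates how firmly the values held. The brighter and dimmer markers, a split added after the data were seen, had medians of -0.33 and -0.02 with median centring. No paired analysis was possible because each genotype has 1 pool.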
